A study of Mus musculus with 12 samples.

Results

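The 10 genes Pbrm1, Arid2, Brd7, Phf10, Dpf1, Dpf2, Dpf3, Ss18, Arid1a and Arid1b encode subunits that set the PBAF and BAF forms of the SWI/SNF chromatin remodeler apart. The accessibility of their loci was measured in splenic germinal center B cells of Pbrm1-/- and Pbrm1+/+ mice. A peak was counted for a gene when the peak midpoint had that gene as the nearest protein-coding RefSeq span within 50000 bp, which gave 103 of the 68689 peaks in the count table. PBAF-specific subunit genes held 14 of them (Pbrm1 2, Arid2 3, Brd7 6, Phf10 3). BAF subunit genes held 89 (Dpf1 5, Dpf2 3, Dpf3 2, Ss18 6, Arid1a 10, Arid1b 63). By position 16 were gene-end peaks, with the midpoint within 1000 bp of either end of a span, 81 lay elsewhere inside a span and 6 were intergenic. Every peak was 501 bp long, so levels in CPM, counts per the library total after adjustment by TMM normalization factors, can be set side by side between peaks.

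The libraries came from Omni-ATAC-seq, which marks accessible DNA by letting Tn5 transposase place sequencing adapters there. There were 4 groups of 3 libraries. HOMO CB and HOMO CC came from Pbrm1-/- mice, and WT CB and WT CC from Pbrm1+/+ mice; all were C57BL/6 mice of 8 to 10 weeks, and the tissue was spleen. The labels do not spell out CB and CC, do not say how the Pbrm1 allele was made or in which cells it acts, and do not tie libraries to individual mice. Every count column carries the prefix Pbrm1AID, a name left unexplained. The p-values therefore measure the spread between these libraries, part of which may be technical. In bulk libraries, fewer cells open at a site and less opening in each cell cannot be told apart.

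SWI/SNF remodelers use ATP to slide or evict nucleosomes, and mammalian cells assemble them as alternative complexes around a shared ATPase and core. PBAF carries Pbrm1, which binds acetylated histone tails through its bromodomains, Arid2, a DNA-binding scaffold, Brd7, another bromodomain protein, and Phf10, a PHD-finger protein. BAF carries Arid1a or Arid1b as its scaffold, a Dpf protein, whose paired PHD fingers read acylated histone H3, and Ss18, which is also found in a form of the complex that lacks the ARID subunits. PBAF is mostly described at promoters and BAF mostly at enhancers, and loss-of-function mutations of the ARID1A gene recur in human follicular lymphoma.

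Promoter sequences of 4 genes are shown because each of these genes had a peak past its start that was lower in HOMO libraries, or in the case of Dpf3 just missed that call, while the peak at the start did not pass the test. They are the 250 bases before the start listed in RefSeq for GRCm38.p6, the assembly whose primary chromosomes mm10 shares. The Dpf2 window is chr19:5912872-5913121 on the minus strand, the Brd7 window chr8:88362173-88362422 on the minus strand, the Dpf3 window chr12:83487737-83487986 on the minus strand and the Dpf1 window chr7:29303755-29304004 on the plus strand. Capitals mark matches on either strand to the motifs named below, and overlapping matches are capitalised once.
Dpf2: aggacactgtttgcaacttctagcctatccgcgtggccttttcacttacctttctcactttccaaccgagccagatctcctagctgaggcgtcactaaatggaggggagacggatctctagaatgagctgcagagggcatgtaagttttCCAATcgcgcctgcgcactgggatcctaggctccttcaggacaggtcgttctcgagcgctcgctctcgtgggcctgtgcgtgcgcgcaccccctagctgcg
Brd7: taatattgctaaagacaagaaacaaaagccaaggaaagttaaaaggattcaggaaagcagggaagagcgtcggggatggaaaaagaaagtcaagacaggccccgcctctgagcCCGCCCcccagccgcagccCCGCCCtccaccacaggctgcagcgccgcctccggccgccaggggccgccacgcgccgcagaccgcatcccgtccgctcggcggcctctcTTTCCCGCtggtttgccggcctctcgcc
Dpf3: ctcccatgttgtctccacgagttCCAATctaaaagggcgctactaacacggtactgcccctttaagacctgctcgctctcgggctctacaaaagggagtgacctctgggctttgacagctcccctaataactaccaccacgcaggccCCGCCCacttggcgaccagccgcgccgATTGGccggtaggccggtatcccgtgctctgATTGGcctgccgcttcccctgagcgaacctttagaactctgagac
Dpf1: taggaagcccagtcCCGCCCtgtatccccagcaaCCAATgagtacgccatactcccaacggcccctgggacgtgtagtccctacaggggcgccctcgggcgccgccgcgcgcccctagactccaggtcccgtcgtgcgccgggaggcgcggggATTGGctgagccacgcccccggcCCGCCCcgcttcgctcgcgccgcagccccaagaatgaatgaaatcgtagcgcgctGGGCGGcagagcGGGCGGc

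In these windows, the Dpf2 sequence held 1 CCAAT box and no Sp/KLF box (GGGCGG). Brd7 held 2 GGGCGG matches and 1 E2F site (TTTCCCGC), Dpf3 held 3 CCAAT matches and 1 GGGCGG match, and Dpf1 held 4 GGGCGG and 2 CCAAT matches. None of the 4 windows held the other motifs searched, which were the ETS core CCGGAAG, the E-box CACGTG, the cAMP response element TGACGTCA, the NRF1 site and the TATA box TATAAA. Of 32851 listed mouse promoters of the same length, 33.8% held CCAAT, 32.7% GGGCGG, 0.895% TTTCCCGC, 6.91% CCGGAAG, 6.02% CACGTG, 1.55% TGACGTCA, 0.782% the NRF1 site and 12.4% TATAAA. The windows shared 174 bases with the start-site peak at Dpf2, 64 at Brd7 and all 250 at both Dpf3 and Dpf1. The sequence of the lower peaks themselves was not used here.

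Totals of counts in peaks ran between 6431354 in HOMO CC library 1 and 45590454 in HOMO CB library 3, and library 1 was the shallowest of both HOMO groups. The germinal center marker genes Bcl6, S1pr2, Mef2b, Gcsam and Fas all had peaks, 41 together, as did the B cell genes Cd79a, Cd79b, Ms4a1 and Pax5, with 42. Of the germinal center peaks, 1 was called higher in HOMO CB and 0 in HOMO CC, and of the B cell peaks 0 in CB and 3 in CC, with none called lower. Beside these, 0.779% of all peaks were called higher in CB and 0.578% in CC. The germinal center peaks summed to 859 to 946 CPM in HOMO CB against 803 to 838 CPM in WT CB, and to 747 to 870 CPM in HOMO CC against 708 to 724 CPM in WT CC. The B cell peaks summed to 1110 to 1120 CPM in HOMO CB against 1010 to 1040 CPM in WT CB, and to 989 to 1140 CPM in HOMO CC against 934 to 970 CPM in WT CC. HOMO sums were above WT sums without overlap for both groups of genes in both populations. Single peaks had this order at 10.3% of all peaks in CB and 9.81% in CC, and no such share was taken for sums. Of the markers of other cells, 3 of 6 T cell genes had a peak, with 27.0 to 38.5 CPM summed over 3 peaks in a library, as did 3 of 5 myeloid genes and 2 of 3 natural killer genes, and none of these peaks was called between genotypes. At 2 of 5 erythroid genes, 3 of 4 peaks were called lower in HOMO CB, beside 3.85% of all peaks. The 4 peaks summed to 52.0 to 60.8 CPM in HOMO CB, against 70.3 to 72.7 CPM in WT CB. In CC the sums were 55.4 to 59.4 CPM in HOMO and 61.9 to 66.2 CPM in WT, with no call. The part of these markers in the results below was not tested. A peak at Xist, whose RNA silences one X chromosome in female cells, had 0.458 CPM in WT CB library 2 and 0.782 CPM in WT CC library 2, against 4.73 to 17.2 CPM in the other libraries. Another Xist peak had 3.89 CPM in WT CB library 2 and 5.06 CPM in WT CC library 2. The other libraries had 4.88 to 9.39 CPM there, so WT CC library 2 lay within their range. Results are therefore also given without both WT libraries numbered 2 where that ends a call.

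Most peaks of the subunit genes did not differ by genotype, and those that passed the test were all lower in HOMO cells. With edgeR's quasi-likelihood test and Benjamini-Hochberg adjustment over all peaks, called at an adjusted p under 0.05, 3 of 103 peaks (2.91%) were lower in HOMO CB and 4 (3.88%) in HOMO CC, and none was higher. Over all 68689 peaks, 3.85% were called lower and 0.779% higher in CB, and 2.17% lower and 0.578% higher in CC, so the counts at the subunit genes lay near the background. The called peaks belonged to Dpf1, Dpf2 and Brd7 in both populations (3 peaks, where 1.58% of all peaks were called lower in both) and to Ss18 in CC. The median log2 fold change of HOMO over WT was 0.01 in CB and -0.03 in CC at the subunit genes, beside 0.01 and 0.02 over all peaks. At an unadjusted p under 0.05, 8 peaks were lower and 3 higher in CB, 10.7% of the 103, beside 19.7% of all peaks. In CC, 8 were lower and 4 higher, or 11.7%, beside 17.2% of all peaks.

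**Figure D1:**
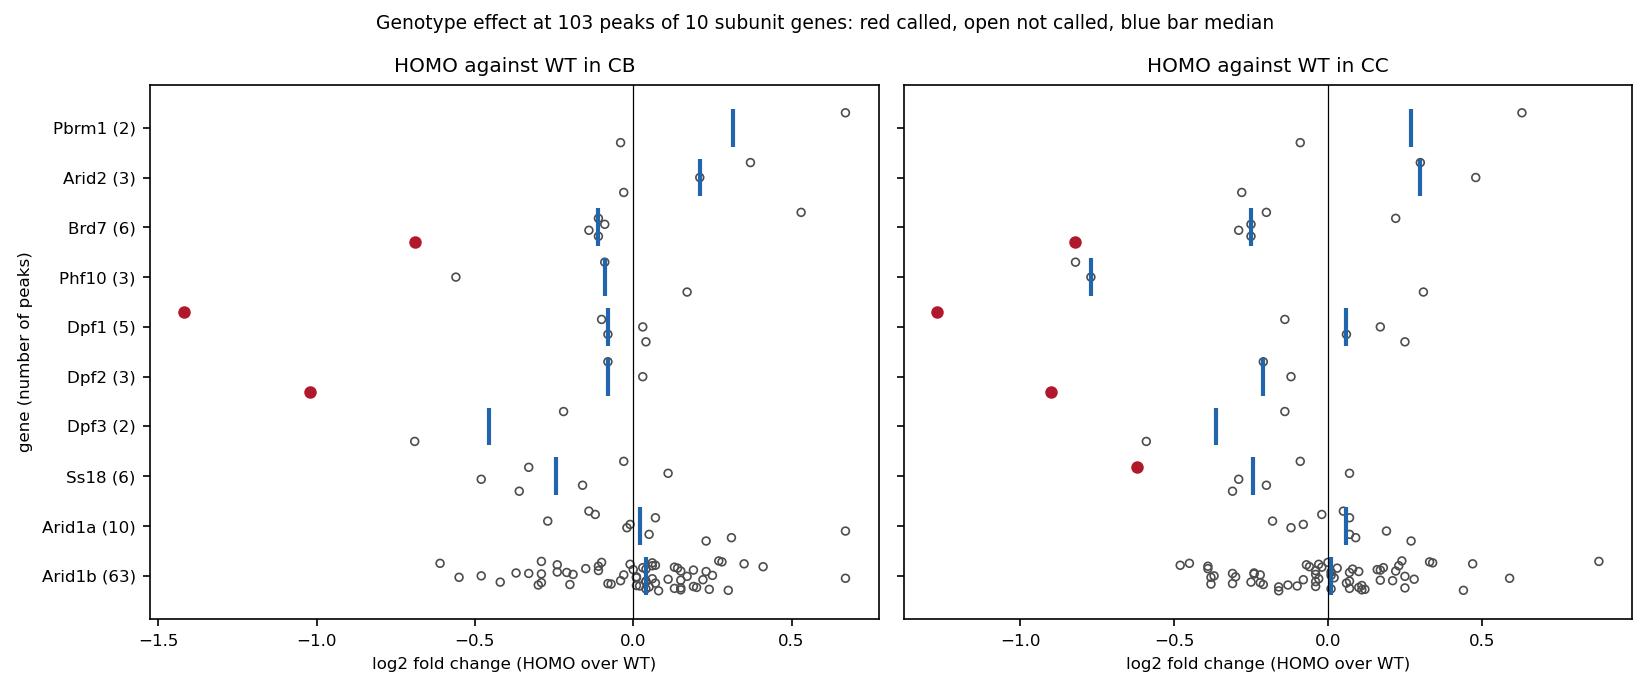
Log2 fold change of HOMO over WT (x axis) at each of the 103 peaks, in rows by gene with the number of peaks in brackets, for CB (left) and CC (right). Red points are peaks called at an adjusted p under 0.05, open points are not called and blue bars are gene medians; the called points are all left of 0, and the 63 Arid1b peaks spread around 0.

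All 3 HOMO libraries lay below all 3 WT libraries at 13 of the 103 peaks in CB and at 10 in CC, where the background over all peaks was 13.2% and 11.2%. The reverse order, with HOMO above WT, held at 5 peaks in CB (background 10.3%) and 4 in CC (9.81%). HOMO was below WT without overlap in both populations at 4 peaks, 1 each of Dpf1, Dpf2, Brd7 and Phf10, with a background of 6.08%. Among gene-end peaks, 2 of 16 (12.5%) were called lower in each population, beside 9.19% of all gene-end peaks in CB and 5.59% in CC. Inside spans, 1 of 81 (1.23%) was called lower in CB and 2 of 81 (2.47%) in CC, beside 2.47% and 1.31% of all such peaks. None of the 6 intergenic peaks was called, beside 1.98% of all intergenic peaks called lower in CB and 0.975% in CC.

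Pbrm1 is the gene by which the genotypes are named, and its peaks did not separate them. Which part of the gene is altered is not given, so these peaks do not check the genotype labels. The peak 339 bp downstream of its start (chr14:31019227-31019727) had 26.5, 29.6 and 36.0 CPM in HOMO CB libraries 1 to 3, against 29.0, 26.5 and 39.3 CPM in WT CB, and 28.4, 26.0 and 36.2 CPM in HOMO CC, against 24.5, 32.3 and 39.5 CPM in WT CC. Ranges of the genotypes overlapped in both populations, and the log2 fold changes were -0.04 (SE 0.18, edgeR adjusted p = 0.931) in CB and -0.09 (SE 0.18, adjusted p = 0.855) in CC.

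The other Pbrm1 peak lay inside the gene (chr14:31025823-31026323, 6935 bp downstream of the start) and was weak, with 9 to 162 counts per library. It had 2.49, 4.23 and 3.63 CPM in HOMO CB against 2.54, 1.03 and 2.75 CPM in WT CB, and 4.14, 3.35 and 4.12 CPM in HOMO CC against 3.42, 1.14 and 2.88 CPM in WT CC. The low WT values were those of library 2 in both populations, and neither contrast passed the test (log2 fold change 0.67 with adjusted p = 0.27 in CB, and 0.63 with adjusted p = 0.347 in CC, edgeR).

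Among the partners of Pbrm1 in PBAF, Brd7 was the gene with a called peak. This peak (chr8:88361077-88361577) was centred 845 bp downstream of the start, inside the gene. Its levels were 6.42, 7.54 and 5.96 CPM in HOMO CB, against 12.2, 10.8 and 9.35 CPM in WT CB. In CC they were 6.80, 5.18 and 7.77 CPM in HOMO, against 11.1, 13.4 and 10.5 CPM in WT. Every HOMO library was below every WT library in both populations. The log2 fold change was -0.69 (SE 0.19, edgeR adjusted p = 0.0375) in CB and -0.82 (SE 0.19, adjusted p = 0.0228) in CC. These calls were the closest to the threshold among the 3 genes called in both populations. The CB call was lost without any one of 6 libraries (HOMO CB 1, 2 or 3, WT CB 1 or 2, WT CC 1), with adjusted p of 0.0512 to 0.174, and without both WT libraries numbered 2 (0.0915) or both HOMO libraries numbered 1 (0.0532). The CC call was lost without HOMO CC 2 (0.203), WT CC 1 (0.0672) or WT CC 2 (0.0956), and without both WT libraries numbered 2 (0.115).

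The peak over the Brd7 start itself (chr8:88361736-88362236, 186 bp downstream) was taller, with 30.6, 25.3 and 24.9 CPM in HOMO CB, against 29.6, 23.6 and 32.1 CPM in WT CB. HOMO CC had 27.9, 23.7 and 23.2 CPM, and WT CC 27.6, 27.4 and 32.7 CPM. The genotypes overlapped, and the log2 fold changes of -0.11 (SE 0.13) in CB and -0.25 (SE 0.13) in CC did not pass the test (edgeR adjusted p = 0.70 and 0.331). As a ratio within each library, the downstream peak stood at 0.209 to 0.299 of the start-site peak in HOMO CB, against 0.292 to 0.456 in WT CB, and at 0.219 to 0.335 in HOMO CC, against 0.320 to 0.489 in WT CC, so the ratios overlapped in both. An upstream peak centred 551 bp before the start averaged 10.1 ± 0.782 CPM in HOMO CB and 11.1 ± 0.233 CPM in WT CB. It averaged 10.5 ± 1.22 CPM in HOMO CC and 12.6 ± 1.12 CPM in WT CC (SD, n = 3 libraries each), with log2 fold changes of -0.14 and -0.29 that were not called (edgeR adjusted p = 0.662 and 0.329).

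When the counts of all peaks of a gene were summed and tested over 14357 genes, Brd7 in CC was the single subunit gene called. Its 6 peaks summed to 53.7, 44.6 and 45.8 CPM in HOMO CC, against 58.8, 58.5 and 60.4 CPM in WT CC, a log2 fold change of -0.32 (SE 0.08, edgeR adjusted p = 0.0357). All HOMO CC sums were below all WT CC sums. Of all genes, 3.22% were called lower and 1.09% higher in CC. At an unadjusted p under 0.05 in CC, Dpf2, Ss18 and Arid2 were there too. Their log2 fold changes were -0.27, -0.18 and 0.34 (edgeR adjusted p = 0.0768, 0.123 and 0.184). DESeq2 called Dpf2 in CC as well (adjusted p = 0.0455). With the replicate number as a block, edgeR called Dpf2 (0.0195), Ss18 (0.0422) and Arid2 (0.0411). In CB the Brd7 sums were 53.0, 50.9 and 46.2 CPM in HOMO and 56.7, 51.2 and 55.3 CPM in WT, with overlap and a log2 fold change of -0.13 (adjusted p = 0.335). No subunit gene was called in CB by edgeR, where 4.81% of all genes were lower and 2.48% higher; at an unadjusted p under 0.05 Dpf3 alone was there, DESeq2 called 0 and limma-voom 1 (Dpf3). The CC call of Brd7 was lost with only HOMO CC and WT CC in the fit (0.052), without any one of HOMO CB 2, HOMO CC 2, HOMO CC 3 and WT CC 1 to 3 (0.0508 to 0.22), and without both WT libraries numbered 2 (0.0964).

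Phf10 and Arid2 had no call by genotype. Phf10 had its highest gene-end peak 83 bp downstream of the start (chr17:14960927-14961427), at 4.32, 2.55 and 4.10 CPM in HOMO CB against 3.51, 3.78 and 4.05 CPM in WT CB. In CC it had 0.591, 1.68 and 3.51 CPM in HOMO against 3.03, 3.43 and 5.14 CPM in WT, and the value of 0.591 CPM rested on 4 counts in the shallowest library. The log2 fold change in CC was -0.82 (SE 0.35, edgeR adjusted p = 0.23). A still weaker Phf10 peak, centred 1095 bp downstream, had HOMO below WT in every library, with 0.655, 1.82 and 1.28 CPM in HOMO CB against 2.20, 2.06 and 1.86 CPM in WT CB, and 1.18, 1.30 and 1.24 CPM in HOMO CC against 2.41, 2.59 and 1.56 CPM in WT CC. It did not pass the test (log2 fold change -0.56 with adjusted p = 0.35 in CB, and -0.77 with adjusted p = 0.23 in CC, edgeR). No assigned peak lay within 1000 bp of an end of Arid2. Its 3 peaks were inside the span, with log2 fold changes by genotype of -0.03 to 0.37 in CB and -0.28 to 0.48 in CC.

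Of the BAF subunits, Dpf2, the broadly expressed member of its family, had a called peak at the position seen for Brd7. The peak was centred 723 bp downstream of the start (chr19:5911898-5912398). It had 4.72, 4.15 and 5.18 CPM in HOMO CB, against 9.32, 9.05 and 10.0 CPM in WT CB. In CC it had 5.47, 4.77 and 5.76 CPM in HOMO, against 9.24, 10.7 and 9.75 CPM in WT. HOMO and WT libraries were well apart in both populations. The log2 fold change was -1.02 (SE 0.17, edgeR adjusted p = 0.00301) in CB and -0.90 (SE 0.17, adjusted p = 0.011) in CC. The CB call held under all 22 alternatives run (adjusted p up to 0.0459), and the CC call was lost without HOMO CC 2 (0.111) and without both WT libraries numbered 2 (0.0605).

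At the Dpf2 start, the neighbouring peak (chr19:5912545-5913045, 76 bp downstream) had 22.4, 21.7 and 18.2 CPM in HOMO CB against 18.3, 19.0 and 22.9 CPM in WT CB, and 17.2, 21.2 and 19.4 CPM in HOMO CC against 20.4, 19.7 and 23.0 CPM in WT CC. The genotypes overlapped here, with log2 fold changes of 0.03 (SE 0.13, edgeR adjusted p = 0.932) in CB and -0.12 (SE 0.13, adjusted p = 0.708) in CC. Within each library the downstream peak was 0.191 to 0.285 of the start-site peak in HOMO CB, against 0.438 to 0.509 in WT CB, and 0.225 to 0.319 in HOMO CC, against 0.424 to 0.543 in WT CC. These ratios did not overlap between genotypes, and being taken within a library they do not depend on library totals.

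**Figure D2:**
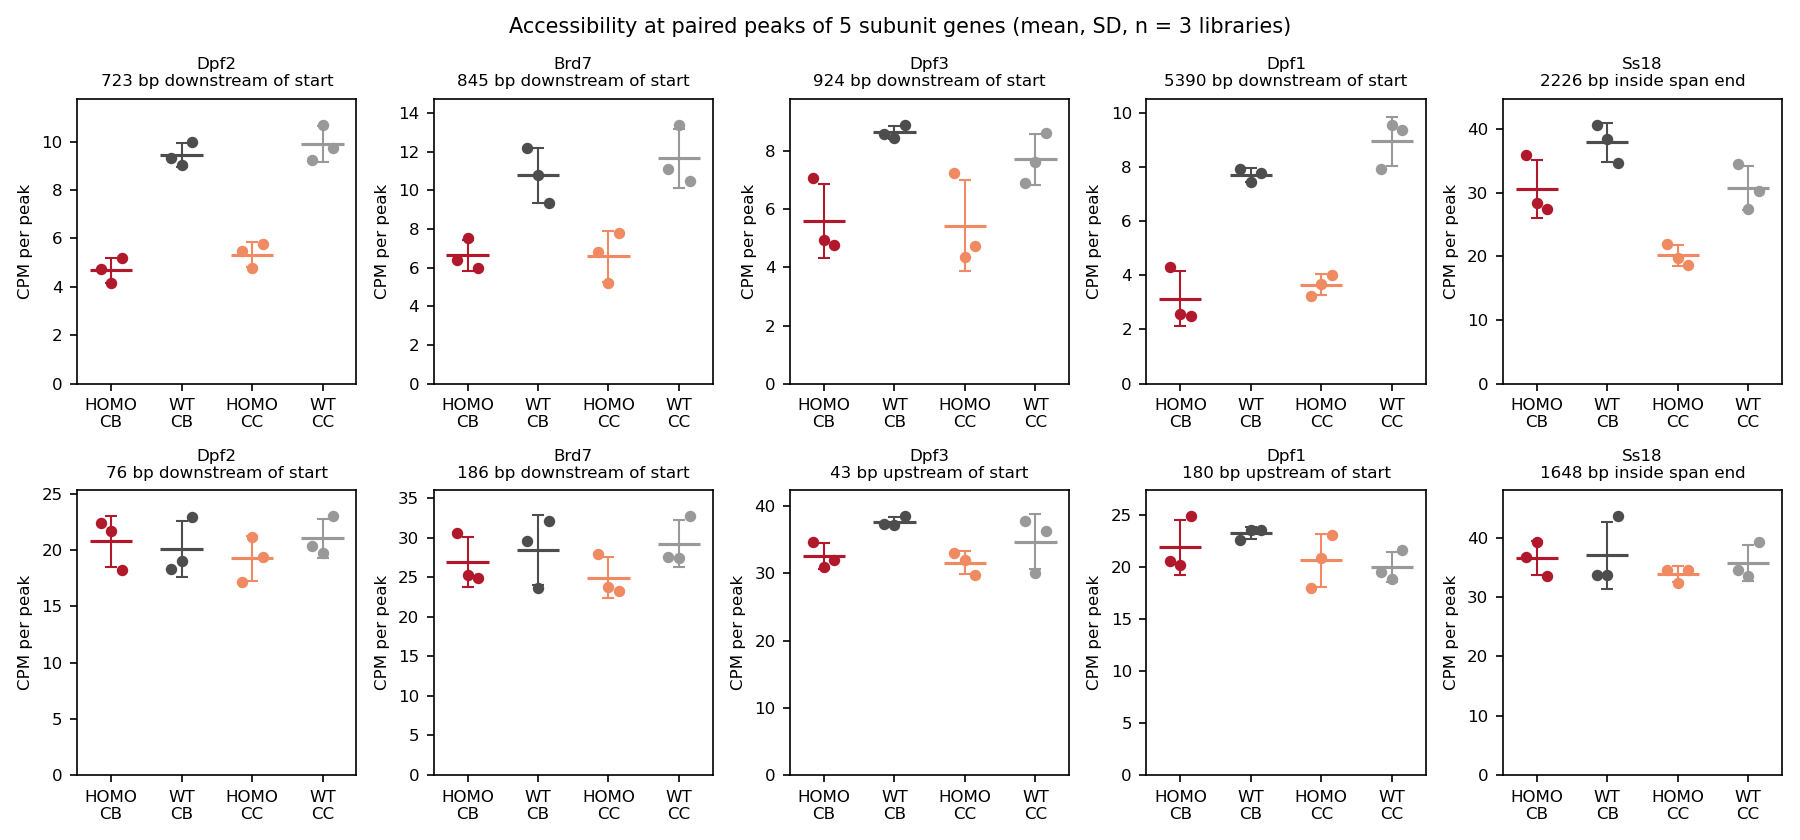
Accessibility in CPM per peak (y axis, from 0) in each of the 12 libraries at 5 peaks of Dpf2, Brd7, Dpf3, Dpf1 and Ss18 (upper row) and at a taller peak of the same gene, at the start where one is listed (lower row); points are libraries, bars are means and whiskers SDs of 3 libraries. In the upper row the Dpf2, Brd7 and Dpf1 points of HOMO lie below all WT points in both CB and CC, while in the lower row the genotypes overlap except at Dpf3 in CB.

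Dpf3, best known from heart and muscle, was the nearest gene outside the threshold in both populations. Its peak 924 bp downstream of the start (chr12:83486562-83487062) had 7.07, 4.96 and 4.78 CPM in HOMO CB against 8.59, 8.48 and 8.92 CPM in WT CB, and 7.25, 4.36 and 4.73 CPM in HOMO CC against 6.91, 7.64 and 8.65 CPM in WT CC. HOMO was below WT in every CB library, while HOMO CC library 1 lay within the WT range. The log2 fold changes were -0.69 (SE 0.20, edgeR adjusted p = 0.0568) in CB and -0.59 (SE 0.21, adjusted p = 0.129) in CC. In CB it was called under 8 of 22 alternatives, DESeq2 (0.0314) and limma-voom (0.00739) among them, and in CC under 5 of 22. The Dpf3 peak at the start, centred 43 bp upstream (chr12:83487529-83488029), had 34.7, 31.0 and 32.0 CPM in HOMO CB against 37.4, 37.2 and 38.5 CPM in WT CB, and 33.0, 32.0 and 29.7 CPM in HOMO CC against 37.8, 30.1 and 36.3 CPM in WT CC. Its log2 fold changes were -0.22 (adjusted p = 0.241) and -0.14 (adjusted p = 0.518).

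The position of the Dpf2, Brd7 and Dpf3 peaks is one where lower values in HOMO were frequent across the genome. Among 1250 peaks centred 500 to 999 bp downstream of a listed start, at an average log2 CPM of 2 to 4, 26.9% were called lower in CB and 18.9% in CC, with median log2 fold changes of -0.48 and -0.46. Of the 3 subunit-gene peaks in this class, 2 were called lower in each population, and all 3 fold changes were below those medians. Over the 1250 peaks, HOMO lay below WT without overlap at 51.0% in CB and 52.3% in CC. Another peak in the same distance range, at Arid1b, was outside this range of levels and had log2 fold changes of 0.04 in CB and 0.01 in CC. Nearer the start, 0 to 499 bp downstream at log2 CPM 2 to 4, the shares were similar, 25.1% in CB and 18.6% in CC. At all levels they were 12.6% and 7.62% there, so the shares varied with level as well as position. The start-site peaks of Dpf2, Brd7 and Dpf3 were above log2 CPM 4. On the other side of the start, 501 to 1000 bp upstream at log2 CPM 2 to 4, 7.23% of all peaks were called lower in CB and 3.82% in CC.

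**Figure D3:**
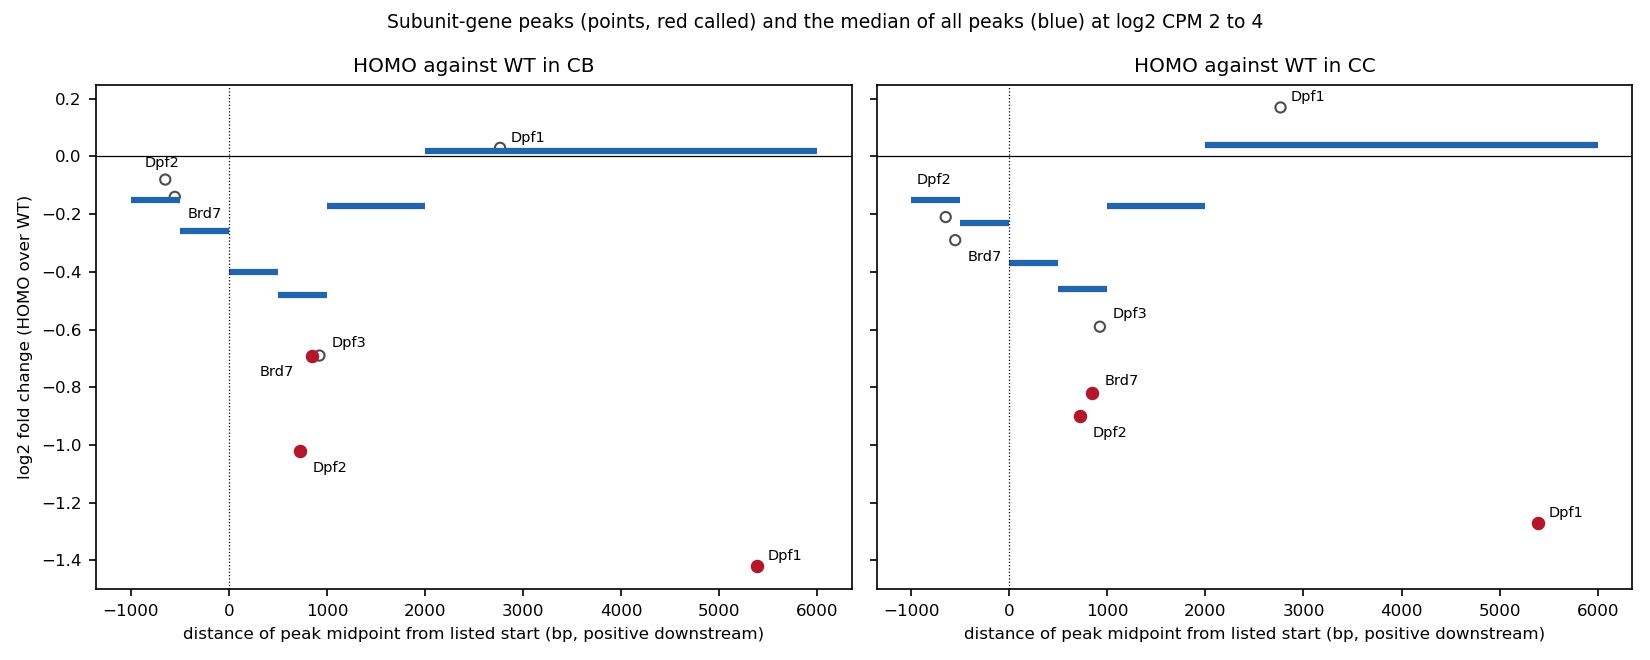
Log2 fold change of HOMO over WT (y axis) against the distance of the peak midpoint from the listed start (x axis, bp, positive downstream) for subunit-gene peaks at an average log2 CPM of 2 to 4, in CB (left) and CC (right). Red points are called and open points are not, and blue bars give the median of all peaks in each distance range. The bars are lowest at 500 to 999 bp downstream (-0.48 in CB, -0.46 in CC). The Dpf1 point at 5390 bp lies far below the bar of its range, and the Dpf1 point at 2766 bp does not.

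The lowest fold change among the 103 peaks was at Dpf1, a family member best known from neurons. The peak was inside the gene, 5390 bp downstream of the start (chr7:29309145-29309645). It had 4.32, 2.58 and 2.51 CPM in HOMO CB, against 7.95, 7.44 and 7.79 CPM in WT CB. HOMO CC had 3.25, 3.69 and 4.02 CPM, and WT CC 7.92, 9.57 and 9.38 CPM. In both populations the highest HOMO library was well below the lowest WT library. The log2 fold change was -1.42 (SE 0.21, edgeR adjusted p = 0.00134) in CB and -1.27 (SE 0.20, adjusted p = 0.00549) in CC. The CB call held under all 22 alternatives run (adjusted p up to 0.0272), and the CC call under 21, being lost without HOMO CC 2 (0.0743). At this distance, 2000 to 5999 bp downstream of a start, and at log2 CPM 2 to 4, 2.49% of 1407 peaks were called lower in CB and 1.78% in CC, with median log2 fold changes of 0.02 and 0.04.

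The other 4 Dpf1 peaks had log2 fold changes of -0.10 to 0.04 in CB and -0.14 to 0.25 in CC, with no call. Over the start (chr7:29303575-29304075, centred 180 bp upstream), Dpf1 had 20.6, 20.2 and 24.9 CPM in HOMO CB against 22.6, 23.6 and 23.6 CPM in WT CB, and 18.0, 20.9 and 23.1 CPM in HOMO CC against 19.5, 18.9 and 21.7 CPM in WT CC. The genotypes overlapped, and the log2 fold changes were -0.08 (SE 0.12, edgeR adjusted p = 0.78) and 0.06 (SE 0.13, adjusted p = 0.854). The ratio of the inner peak to the start-site peak was 0.101 to 0.210 in HOMO CB, against 0.316 to 0.351 in WT CB, and 0.174 to 0.180 in HOMO CC, against 0.406 to 0.506 in WT CC. Summed over its 5 peaks, Dpf1 had log2 fold changes of -0.09 (SE 0.12, adjusted p = 0.703) in CB and -0.09 (SE 0.13, adjusted p = 0.713) in CC, so the change at 1 peak was not seen in the sum.

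Ss18, the subunit fused to SSX proteins in human synovial sarcoma, was called in CC. The peak (chr18:14681943-14682443) lay 2226 bp inside one end of the span. It had 22.0, 19.8 and 18.7 CPM in HOMO CC, against 34.5, 27.5 and 30.3 CPM in WT CC, without overlap. The log2 fold change was -0.62 (SE 0.12, edgeR adjusted p = 0.0135). In CB the levels were 35.9, 28.4 and 27.5 CPM in HOMO, against 40.7, 38.4 and 34.7 CPM in WT, where HOMO CB library 1 overlapped the WT range, and the log2 fold change was -0.33 (SE 0.12, adjusted p = 0.127). The difference between these effects, CC minus CB, was -0.29 (SE 0.17) with an unadjusted p of 0.108 and an adjusted p of 1.00, so the effect was not shown to differ between the populations. The CC call was lost without HOMO CC 2 (0.107), HOMO CC 3 (0.0799) or WT CC 1 (0.0737). In CB the peak was called lower under 4 of 22 alternatives, limma-voom (0.0289) and the fit without HOMO CB 1 (0.0418) among them.

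A taller Ss18 peak next to it, 1648 bp inside the same end (chr18:14682521-14683021), had 34.6, 32.3 and 34.6 CPM in HOMO CC against 34.6, 33.5 and 39.2 CPM in WT CC, and 36.8, 39.3 and 33.5 CPM in HOMO CB against 33.7, 33.7 and 43.6 CPM in WT CB. Its log2 fold changes were -0.09 in CC and -0.03 in CB, neither called (edgeR adjusted p = 0.763 and 0.925). The ratio of the called peak to this neighbour was 0.541 to 0.637 in HOMO CC, against 0.772 to 0.996 in WT CC, and 0.724 to 0.975 in HOMO CB, against 0.797 to 1.21 in WT CB. The ratios were apart in CC and overlapped in CB.

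The scaffold genes Arid1a and Arid1b had no called peak by genotype in either population, although they held 73 of the 103 peaks. Arid1a had 10 peaks with log2 fold changes of -0.27 to 0.67 in CB and -0.18 to 0.27 in CC. Over its upstream start (chr4:133756555-133757055), Arid1a had 34.7, 34.7 and 30.2 CPM in HOMO CB against 34.8, 38.7 and 34.9 CPM in WT CB, and 32.1, 29.7 and 30.6 CPM in HOMO CC against 32.6, 29.4 and 31.2 CPM in WT CC. Values differed little between genotypes, and the log2 fold changes were -0.12 (SE 0.10, edgeR adjusted p = 0.536) and -0.02 (SE 0.10, adjusted p = 0.956). The Arid1a peak of smallest p was inside the gene (chr4:133715209-133715709), at 1.57, 2.69 and 2.80 CPM in HOMO CB against 1.76, 1.37 and 1.49 CPM in WT CB, a log2 fold change of 0.67 with an adjusted p of 0.165. In CC it had 3.25, 2.76 and 3.20 CPM in HOMO against 2.41, 3.25 and 2.35 CPM in WT (log2 fold change 0.19, edgeR adjusted p = 0.764).

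Arid1b is the longest of the spans, and its 63 peaks had mean levels of 1.18 to 46.4 CPM. Their log2 fold changes by genotype ran between -0.61 and 0.67 in CB and between -0.48 and 0.88 in CC, with medians of 0.04 and 0.01. The highest gene-end peak (chr17:4993996-4994496) had 31.3, 37.8 and 37.1 CPM in HOMO CB against 29.6, 31.3 and 35.3 CPM in WT CB, and 30.9, 34.8 and 34.5 CPM in HOMO CC against 32.3, 29.6 and 31.8 CPM in WT CC. Its log2 fold changes were 0.15 (SE 0.11, edgeR adjusted p = 0.461) and 0.11 (SE 0.11, adjusted p = 0.666). Deep inside the gene, the Arid1b peak of smallest p (chr17:5285826-5286326) had 3.01, 3.55 and 3.81 CPM in HOMO CB against 5.46, 4.92 and 5.67 CPM in WT CB, without overlap, and 3.40, 3.39 and 4.12 CPM in HOMO CC against 3.80, 4.94 and 6.17 CPM in WT CC, with overlap. The log2 fold changes of -0.61 (SE 0.21, adjusted p = 0.105) and -0.45 (SE 0.21, adjusted p = 0.283) did not pass the test. Summed over their peaks, the scaffold genes had log2 fold changes of 0.03 in both populations for Arid1a and of 0.08 in CB and 0.05 in CC for Arid1b, with SEs of 0.07 and 0.08.

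No subunit-gene peak was called for a genotype effect that differed between CC and CB. edgeR called 0 of 103 peaks, with 0 at an unadjusted p under 0.05, and DESeq2 and limma-voom also called 0. Over all 68689 peaks 0 were called (0.0%) and 810 (1.18%) had an unadjusted p under 0.05, so the lack of calls was not particular to these genes. The HOMO effects in CB and CC rest on separate libraries, although same-numbered libraries of a genotype deviated together. The main fit did not pair these libraries, and with the replicate number as a block the count was also 0.

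The populations themselves differed at a few sites of these genes. In WT, 3 peaks were higher and 3 lower in CC than in CB, or 2.91% each, beside 3.35% higher and 2.08% lower over all peaks. In HOMO, 2 were higher (1.94%) and 3 lower (2.91%), beside 4.78% and 2.44%. Same-numbered CB and CC libraries of a genotype deviated together, and with the replicate number as a block the counts were 21 in WT (11 lower, 10 higher) and 21 in HOMO (12 lower, 9 higher). Each is 20.4% of the 103 peaks, beside 22.1% of all peaks in WT and 22.2% in HOMO under the same block. Among peaks described above, the block added calls in WT at the upstream start of Arid1a (log2 fold change of CC over CB -0.21, edgeR adjusted p = 0.0436) and at its peak of smallest p by genotype (0.73, adjusted p = 0.0438), and in HOMO at the highest gene-end peak of Phf10 (-0.67, adjusted p = 0.0353). Values below are without the block unless it is named. Of the WT calls, 0 were left without WT CB 1, without WT CC 2 or without both WT libraries numbered 2. Over all peaks, 1.89%, 2.28% and 0.767% were called in these 3 settings.

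Arid2, the PBAF scaffold, had a peak that was called higher in CC in both genotypes, with and without the block. This peak lay 41368 bp inside the span (chr15:96328640-96329140). It had 8.54, 9.63 and 8.39 CPM in WT CC against 3.12, 6.53 and 4.81 CPM in WT CB, and 11.1, 13.0 and 12.7 CPM in HOMO CC against 4.19, 6.40 and 5.11 CPM in HOMO CB. CC was above CB in every library of both genotypes. The log2 fold change of CC over CB was 0.93 (SE 0.22, edgeR adjusted p = 0.0156) in WT and 1.20 (SE 0.21, adjusted p = 0.00132) in HOMO. The HOMO call held under all 22 alternatives, while the WT call was lost without WT CB 1 (0.118), without WT CC 2 (0.0715) and without both WT libraries numbered 2 (0.0513). The other 2 Arid2 peaks had log2 fold changes of 0.64 and 0.55 in WT and 0.39 and 0.48 in HOMO and were not called.

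Arid1a had a pair of adjoining peaks near the end of its span opposite the listed starts that were lower in CC. The outer one (chr4:133679575-133680075) had 4.11, 3.85 and 4.18 CPM in WT CC against 6.73, 7.90 and 6.23 CPM in WT CB, and 6.21, 4.99 and 4.07 CPM in HOMO CC against 7.99, 8.19 and 8.03 CPM in HOMO CB. The inner one (chr4:133680076-133680576) had 6.91, 6.38 and 7.26 CPM in WT CC against 10.1, 11.3 and 9.82 CPM in WT CB, and 7.69, 6.29 and 7.98 CPM in HOMO CC against 10.9, 11.9 and 15.1 CPM in HOMO CB. CC was below CB without overlap at both peaks in both genotypes. The log2 fold changes of CC over CB were -0.76 (edgeR adjusted p = 0.024) in WT and -0.72 (0.0219) in HOMO at the outer peak, and -0.59 (0.0464) and -0.81 (0.00473) at the inner one. As the peaks touch, they are not independent sites. In WT, the outer call was lost without WT CB 1, WT CB 2, WT CC 1 or WT CC 2 (0.0667 to 0.0944) and without both WT libraries numbered 2 (0.226). The inner WT call held in 9 of 22 alternatives, the block among them. It was lost with limma-voom (0.0661), with only the compared groups (0.0691), when peaks under a mean log2 CPM of 1 were dropped (0.0504), without any one WT library or HOMO CB 2, HOMO CC 2 or HOMO CC 3 (0.0519 to 0.165), and without both WT libraries numbered 2 (0.321). In HOMO, the outer call was lost without HOMO CB 2, HOMO CB 3, HOMO CC 2 or HOMO CC 3 (0.0764 to 0.146), and the inner one without HOMO CB 3 (0.0524) or HOMO CC 2 (0.0539).

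The Ss18 peak called by genotype in CC was also lower in HOMO CC than in HOMO CB, with a log2 fold change of -0.60 (SE 0.12, edgeR adjusted p = 0.00511), and held under all 22 alternatives; in WT the value was -0.30 (SE 0.12, adjusted p = 0.155). With the replicate number as a block it was called in WT as well (log2 fold change -0.29, edgeR adjusted p = 0.00396). This contrast and the genotype contrast share the HOMO CC libraries. The difference between the CC against CB effects of the genotypes is the same quantity as the difference of HOMO effects given above and was not called.

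Arid1b had 4 called sites between populations. Those 30466 and 134709 bp downstream of the start were higher in WT CC than in WT CB. The first (chr17:5025290-5025790) had 5.43, 6.08 and 6.80 CPM in WT CC against 3.07, 1.37 and 3.95 CPM in WT CB (log2 fold change 1.03, SE 0.27, edgeR adjusted p = 0.0259), and 4.14, 4.02 and 5.73 CPM in HOMO CC against 2.23, 2.79 and 3.25 CPM in HOMO CB (0.72, SE 0.27, adjusted p = 0.115). The second (chr17:5129533-5130033) had 11.3, 10.5 and 8.36 CPM in WT CC against 4.98, 7.56 and 5.41 CPM in WT CB (log2 fold change 0.77, SE 0.21, adjusted p = 0.0364), and 10.5, 10.6 and 9.03 CPM in HOMO CC against 9.82, 6.43 and 5.58 CPM in HOMO CB (0.53, SE 0.21, adjusted p = 0.148). CC was above CB without overlap in WT at both sites, and in HOMO at the first but not at the second. With the block both sites were also called higher in HOMO CC, with a log2 fold change of 0.71 (edgeR adjusted p = 0.0058) at the first and 0.58 (0.00108) at the second. The WT call at the first was lost without WT CB 1, WT CB 2, WT CC 2 or WT CC 3 (0.069 to 0.095) and without both WT libraries numbered 2 (0.187). The WT call at the second was lost without any one of HOMO CB 2, HOMO CC 2, WT CB 1, WT CB 3, WT CC 1 and WT CC 2 (0.0514 to 0.182) and without both WT libraries numbered 2 (0.113). Another site, 300736 bp downstream, was lower in WT CC (log2 fold change -0.54, adjusted p = 0.0449), and one 120104 bp downstream and with only 4 to 71 counts per library, was higher in HOMO CC (1.21, adjusted p = 0.0353). Without the block, neither of these was called in the other genotype (log2 fold change -0.26 in HOMO at the one and 1.13 in WT at the other).

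**Figure D4:**
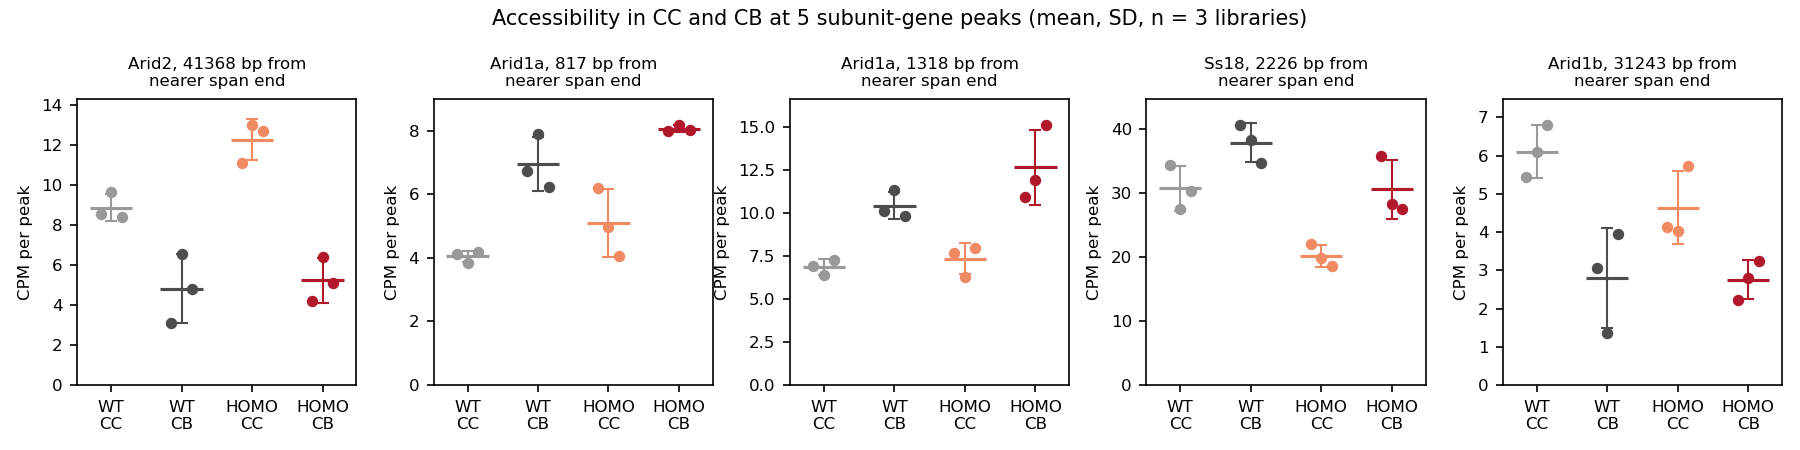
Accessibility in CPM per peak (y axis, from 0) at 5 subunit-gene peaks in WT CC, WT CB, HOMO CC and HOMO CB; points are libraries, bars are means and whiskers SDs of 3 libraries. At the Arid2 peak CC lies above CB in both genotypes, at both Arid1a peaks it lies below CB in both, and at the Ss18 peak the HOMO CC points are the lowest, at 18.7 to 22.0 CPM.

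The shared parts of the complex were set beside these genes as a list of 19 other SWI/SNF genes, among them the ATPases Smarca4 and Smarca2 and the core subunits Smarcb1 and Smarcc1. Peaks were assigned to 18 of them, 116 in all, and none to Brd9. edgeR called 0 of the 116 peaks by genotype in either population, beside 4.63% of all peaks in CB and 2.75% in CC. An unadjusted p under 0.05 was found at 17 in CB and 13 in CC, where 19.7% and 17.2% of all peaks had one. DESeq2 called 1 and 0, beside 6.13% and 4.55% of all peaks, and limma-voom 2 and 2, beside 9.32% and 5.89%. With the replicate block the counts were 7 in CB (2 lower, 5 higher) and 6 in CC (2 lower, 4 higher), beside 13.2% and 10.4%. With log2 library total as a covariate they were 2 and 4, beside 11.8% and 8.42%. The median log2 fold change of this list was 0.07 in CB and 0.06 in CC, beside 0.01 and 0.02 over all peaks. Among 139 peaks of 15 genes of other chromatin remodeler ATPases, edgeR called 2 lower and 2 higher in CB and 2 lower and 0 higher in CC. Over all peaks, 3.85% were called lower and 0.779% higher in CB, and 2.17% and 0.578% in CC. With the replicate block these remodeler genes had 20 calls in CB (11 lower, 9 higher) and 16 in CC (6 lower, 10 higher).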

How the data were processed

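The Omni-ATAC libraries were those of the splenic germinal center B cells described above. The authors deposited raw counts per peak on mm10 for 12 libraries. BWA, deepTools, FastQC and R 4.2.1 appear in the submitters' processing notes, with no role. How peaks were called, duplicates and the Tn5 offset handled and libraries pooled were steps not given in the sources used here.

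Members, lists and tests were chosen with earlier results of these data known. Peaks were assigned to 21631 protein-coding RefSeq spans (GRCm38.p6) within 50000 bp (64044 peaks, 93.2%). Counts were fitted with edgeR 4.0.16 under R 4.3.3 (TMM, filterByExpr, which removed no peak, robust quasi-likelihood, 1 mean per group over 12 libraries, two-sided, Benjamini-Hochberg over all features). CPM values use TMM factors. Peak counts were also summed per gene. Some listed marker genes are not reported here. Alternatives used DESeq2 1.42.0, limma 3.58.1 (voom), other normalization and filters, a depth term, a replicate block and left-out libraries. Named peaks were the highest gene-end peak of each gene, every peak called by genotype, otherwise that of smallest p, up to 2 called between populations, and those nearest the threshold; neighbouring, weaker and further called peaks were added after their values were seen. Tables and figures used Python 3.11.15, numpy 2.4.6, pandas 2.3.3 and matplotlib 3.10.9, and the R package data.table (version 1.17.8).

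The common biological coefficient of variation was 0.142 and the median SE of a log2 fold change 0.20. Replicate libraries differed by a chi-square of 2.28 to 7.67 per degree of freedom, so no pair agreed within counting noise. Tested on simulated data with 68689 peaks, 50 of them changed at each fold, the fit called 60% of peaks changed 2-fold and 94% of those changed 3-fold in CB, and 44% and 96% in CC. Simulated libraries were drawn independently. The fit made 140 calls there in CB and 143 in CC, beside 3178 and 1889 in the real data. With fewer calls the adjustment is stricter, so these shares may be too low for the real data. Deviations from group means correlated at 0.21 to 0.52 in same-numbered CB and CC libraries of a genotype (6 pairs) and at -0.34 to 0.12 in others (12 pairs). The main fit did not pair these libraries. The replicate block, run as an alternative, treated them as pairs for CC against CB and for the difference of effects. Across genotypes the ranges were -0.01 to 0.40 (12 pairs) and -0.30 to 0.18 (24 pairs), and no pairing was assumed.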

Additional observations from a re-analysis of the deposited data

How the results depend on the processing

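No called peak among those recomputed reversed its direction under any alternative run; the Arid1b peaks 300736 and 120104 bp downstream of the start were not recomputed one by one. At the subunit-gene peaks, 3 were called by genotype in CB (2.91%, beside 4.63% of all peaks) and 4 in CC (3.88%, beside 2.75%). In CB the count was 5 with limma-voom (4.85%, beside 9.32% of all peaks) and 7 with log2 library total as a covariate (6.8%, beside 11.8%). It was 7 with the replicate block (6 lower, 1 higher, 6.8% beside 13.2%) and 5 without both HOMO libraries numbered 1 (4.85%, beside 7.14%). Leaving out 1 library at a time gave 2 to 4. In CC it was 8 with the block (6 lower, 2 higher, 7.77% beside 10.4% of all peaks) and 2 without both WT libraries numbered 2 (1.94%, beside 0.473%). Among gene-end peaks only it was 2 (12.5%, beside 5.59% of all gene-end peaks called lower). Leaving out 1 library gave 0 to 5, with 0 without HOMO CC 2 (0.0247% of all peaks) and 2 without WT CC 1 (1.94%, beside 0.48%). The equal numbers across genotypes mark no known pairing. For CC against CB, 6 peaks were called in WT (5.83%, beside 5.43% of all peaks) and 5 in HOMO (4.85%, beside 7.22%). With the depth covariate the counts were 14 (13.6%, beside 11.4%) and 12 (11.7%, beside 13.1%). The block gave 21 and 21 (20.4% each, beside 22.1% and 22.2%). In WT 0 were left without both WT libraries numbered 2 (0.767% of all peaks). Leaving out 1 library gave 0 to 7 in WT (1301 to 4439 over all peaks) and 2 to 6 in HOMO (2018 to 5528). Gene sums gave 0 calls in CB, beside 1046 over all 14357 genes. There was 1 with limma-voom (1732 over all genes), 1 with the block (2860) and 1 without both HOMO libraries numbered 1 (1495). Leaving out 1 library gave 0 to 1 (153 to 1305). In CC gene sums gave 1 call, beside 619 over all genes. There were 2 with DESeq2 (1121 over all genes), 2 with the depth covariate (1834) and 4 with the block (3 lower, 1 higher, beside 2419). With only the compared groups there were 0 (476), and 0 without both WT libraries numbered 2 (103). Leaving out 1 library gave 0 to 1 (19 to 1228). The count for the difference of effects was 0 throughout, block included.

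Over all peaks, leaving out 1 library gave 341 to 4105 calls in CB and 17 to 3413 in CC, beside 3178 and 1889 with all libraries; the block gave 9097 and 7141. The cause of these changes was not tested. In simulated data 16% of peaks changed 1.5-fold were called in CB and 28% in CC, so a change of that size at the peaks not called may have gone undetected.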
